A study of Mus musculus with 8 samples.

Results

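The 10 genes described here mark dendritic cells and their maturation: Flt3, Zbtb46, Xcr1, Clec9a, Batf3, Cd209a, Ccr7, Fscn1, Ccl17 and Ccl22. They were taken as a named list from the 30406 genes that all 8 libraries shared, and their unique molecular identifiers (UMIs, counted mRNA molecules) were summed per library and per cluster of the authors' annotation and scaled to CPM, UMIs of a gene per 1000000 UMIs of the sum. Clusters mDC1 (1131 cells) and mDC2 (991 cells) held the cells that the authors called myeloid dendritic cells, out of 32457 annotated cells in 21 clusters. The authors named mDC1 by Ifitm1 and Clec9a and mDC2 by Cd209a, so the difference in Clec9a and Cd209a between the 2 clusters is by construction and is given only as a description.

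The cells were leukocytes of the brain parenchyma, pia and dura of adult male C57BL/6 mice. Brain here means forebrain and cerebellum with the choroid plexus taken out. A fluorescent CD45 antibody was given into the blood shortly before perfusion. CD45+ cells without it (CD45iv-) were sorted, to lower the share of cells from blood. The groups were control mice without stroke (called healthy, naive or sham-operated in different places) and mice 24 h or 72 h after a transient occlusion of the middle cerebral artery (MCAO), a filament model of ischemic stroke. Control brain, pia and dura, pia and dura at 24 h and brain at 72 h each gave 1 library, and brain at 24 h gave 2. The control pia library was taken as pia from its tissue label and source, although its title names the parenchyma. The libraries pooled mice, how many is not analysed here, and pia and dura at 72 h are not analysed here. Differences between single libraries therefore have no replicate check, and the intervals given with them cover counting error only.

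Libraries held 6591898 to 20754181 UMIs. The second brain library at 24 h and the brain library at 72 h were counted against a gene list of 31053 entries instead of 32285 and stood apart: Cd74, the invariant chain of MHC class II, was at 15824 to 19181 CPM in their mDC2 cells and at 71452 to 118445 CPM in mDC2 of the others. mDC1 and mDC2 numbered 5 and 15 cells in control brain, 22 and 29 and then 51 and 46 in the 2 brain libraries at 24 h, and 384 and 168 in brain at 72 h. They numbered 57 and 115 in control pia, 226 and 190 in pia at 24 h, 205 and 206 in control dura and 181 and 222 in dura at 24 h. Median depth was 1517 to 5857 UMIs per mDC1 cell and 2780 to 5440 per mDC2 cell. Of 36494 barcode sequences, 358 occurred in more than 1 library, and 54 mDC1 or mDC2 cells carried such a barcode.

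Conventional dendritic cells develop under the growth factor receptor Flt3 and express the transcription factor Zbtb46. Their cDC1 arm depends on Batf3, recognises dead cells through Clec9a, answers to the chemokine Xcl1 through Xcr1 and presents antigen to CD8 T cells. The cDC2 arm, of which Cd209a is one mouse marker, presents mainly to CD4 T cells. A maturing dendritic cell of either arm gains Ccr7, the receptor that guides it along lymphatic vessels to lymph nodes, the actin-bundling protein Fscn1, and Ccl22. Ccl17 and Ccl22 are the ligands of Ccr4 and attract T cells. Plasmacytoid dendritic cells are a separate, interferon-producing lineage that also carries Flt3.

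The genes lie at chr5:147330741-147400489 (Flt3), chr2:181387762-181459426 (Zbtb46), chr9:123852315-123862029 (Xcr1), chr6:129408862-129424763 (Clec9a), chr1:191097847-191108945 (Batf3), chr8:3743397-3748984 (Cd209a), chr11:99144196-99155077 (Ccr7) and chr5:142960343-142973185 (Fscn1) of mm10. Ccl17 and Ccl22 lie on the plus strand of mouse chromosome 8, at chr8:94810453-94812036 and chr8:94745590-94751699, 58.8 kb apart, with Cx3cl1, another chemokine gene, between them. Their upstream sequences are shown because Ccl17 gave the largest log2 difference between 24 h and control among the 10 genes in mDC1 and in mDC2 and Ccl22 is the other Ccr4 ligand. The sequences are from RefSeq on GRCm38.p6, run 5′ to 3′ and end at the base before the annotated gene, at chr8:94810203-94810452 (Ccl17, 250 bases) and chr8:94745434-94745589 (Ccl22, 156 bases). Capitals mark a match to TTCNNNGAA, the STAT consensus.

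Ccl17: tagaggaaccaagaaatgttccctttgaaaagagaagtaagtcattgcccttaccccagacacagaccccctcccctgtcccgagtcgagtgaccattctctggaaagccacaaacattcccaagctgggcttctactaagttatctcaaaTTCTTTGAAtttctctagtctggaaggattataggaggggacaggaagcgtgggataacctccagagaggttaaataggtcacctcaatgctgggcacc
Ccl22: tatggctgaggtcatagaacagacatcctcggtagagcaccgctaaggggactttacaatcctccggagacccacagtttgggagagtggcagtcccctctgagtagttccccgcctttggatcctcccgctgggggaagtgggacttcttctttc

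The match in Ccl17 lay 99 to 91 bases before its start. The Ccl22 stretch held no match to any of the 4 motifs searched on both strands, which were TTCNNNGAA, TGANTCA (AP-1), GAAANNGAA (interferon response) and the NF-kappaB consensus. Among 32851 promoters of 250 bases, 7.02% held TTCNNNGAA, 6.75% TGANTCA, 7.13% GAAANNGAA and 3.9% the NF-kappaB consensus. Promoters of 9 of the 10 genes were in the table, without Ccr7. Zbtb46 held TGANTCA and Batf3 held TTCNNNGAA. These are matches of letters and no measure of binding.

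Read across the 21 clusters, each of the 10 genes had its highest mean level in mDC1 or mDC2. Mean CPM in mDC1 and mDC2, over the 6 libraries with 30 or more cells in each cluster, were 169 ± 60.9 and 94.0 ± 25.9 for Flt3 (SD, n = 6 here and in the next 2 paragraphs) and 35.8 ± 19.6 and 57.8 ± 26.0 for Zbtb46. Xcr1 stood at 49.6 ± 52.5 in mDC1 and 2.88 in mDC2, and Clec9a at 52.8 ± 30.4 and 2.17. These lineage genes were thus split unevenly, with the cDC1 receptors near the floor in mDC2. Ccr7 was at 35.7 CPM in mDC1 and 1007 ± 503 in mDC2, ahead of B cells at 461 CPM and T cells at 143 CPM. Ccl17 was at 117 ± 133 and 1835 ± 1759 CPM and Ccl22 at 17.9 and 950 ± 920 CPM.

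**Figure D1:**
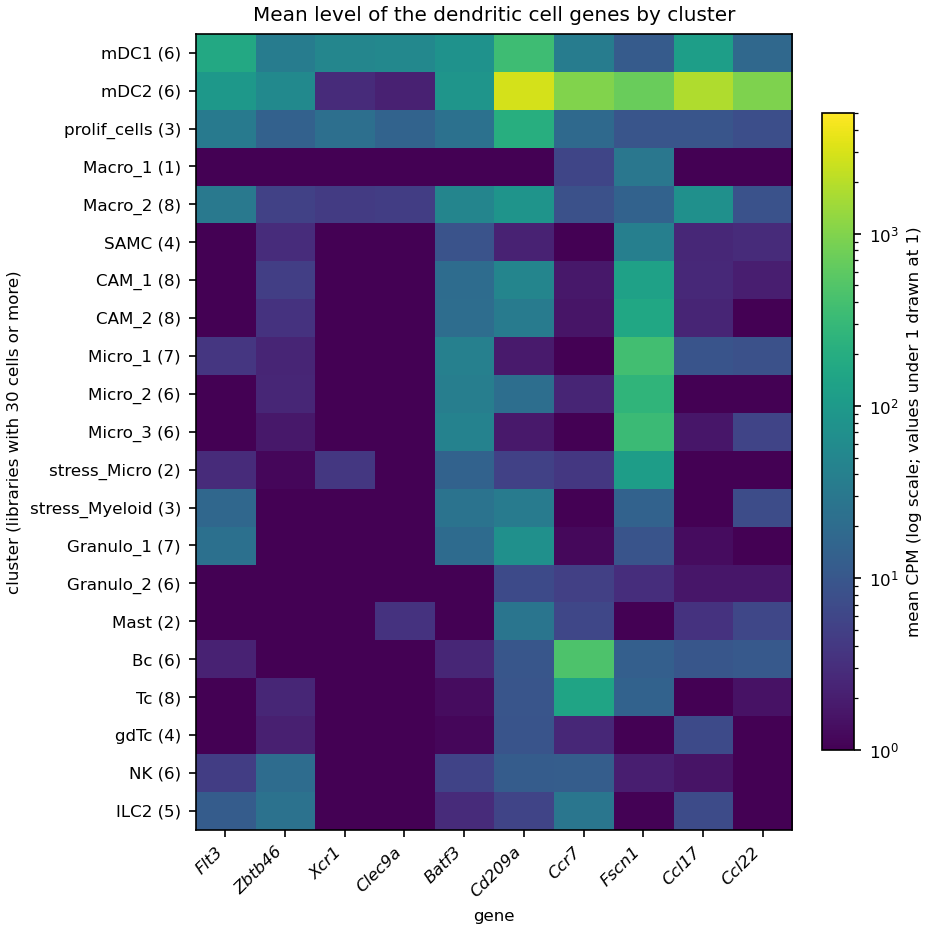
Mean CPM (color scale, log) of the 10 genes (columns) in each cluster of the authors' annotation (rows), over libraries with 30 or more cells of the cluster. Xcr1 and Clec9a are highest in mDC1, while Cd209a, Ccr7, Ccl17 and Ccl22 are highest in mDC2, and Fscn1 and Batf3 are also present in microglia.

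Batf3 and Fscn1 were not particular to dendritic cells. Batf3 was at 76.2 ± 29.1 CPM in mDC1 and 85.0 ± 18.1 CPM in mDC2, with Macro_2, an annotated macrophage cluster, at 47.5 CPM. Fscn1 was at 11.6 CPM in mDC1 and 725 ± 377 CPM in mDC2, with Micro_1, a microglia cluster, at 377 CPM. Of all UMIs of each gene, mDC1 and mDC2 together held 88.5% of Ccl22, 84.0% of Ccl17, 77.1% of Cd209a, 66.2% of Ccr7, 61.5% of Clec9a, 60.0% of Flt3, 59.6% of Xcr1 and 50.1% of Zbtb46. For Batf3 they held 23.8% and microglia clusters 29.8%, and for Fscn1 19.9% and 56.5%. Barcodes without a cluster were counted in these totals and held 5.98% (Ccl22) to 14.1% (Zbtb46).

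Within libraries, mDC1 exceeded mDC2 in all 6 for Flt3 (mean log2 ratio 0.81, SD 0.24), Xcr1 (3.27, SD 1.58) and Clec9a (4.44, SD 1.98), which is 3 of the 10 genes. The share of all 9451 genes higher in mDC1 in all 6 libraries was 13.8%. mDC2 exceeded mDC1 in all 6 for Cd209a (-3.03), Ccl17 (-4.57), Ccr7 (-5.28), Ccl22 (-5.999) and Fscn1 (-6.77), which is 5 of the 10, beside 5.20% of all genes. Zbtb46 (-0.76) and Batf3 (-0.21), the transcription factors, had mixed signs, with mDC1 higher in 1 and 3 of 6 libraries. The clusters were built from these same counts, so no test of these ratios was made.

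**Figure D2:**
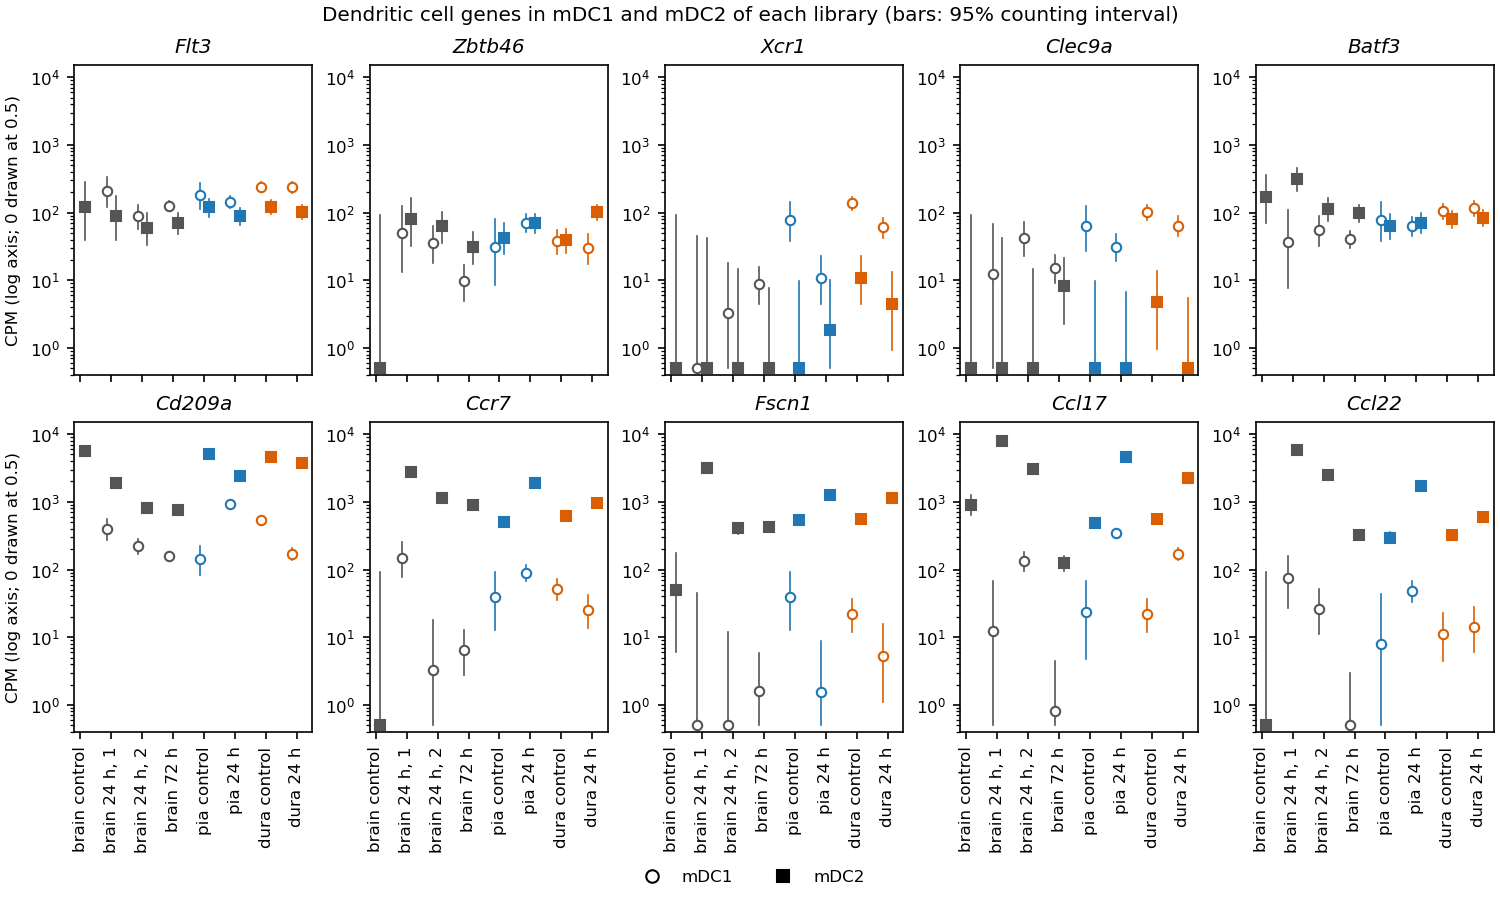
Level of each gene in CPM (log axis) in every library (x axis) for mDC1 (open circles) and mDC2 (filled squares), bars being exact 95% Poisson intervals, grey for brain, blue for pia and orange for dura, with 0 drawn at the foot of the axis and mDC1 of control brain (5 cells) left out. Ccr7, Fscn1, Ccl17 and Ccl22 lie 1 or more orders of magnitude higher in mDC2 than in mDC1 in most libraries, and Ccl17 in mDC2 is lowest in brain at 72 h (124 CPM).

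The wider marker lists, which include the 10 members and hold Siglech under both plasmacytoid and microglia genes, placed the same split in context. Of the 12 cDC1 genes, 9 were higher in mDC1 in all 6 libraries and 0 higher in mDC2. The highest in mDC1 were Irf8 (784 CPM), the lineage factor shared with plasmacytoid cells, Naaa (467), Cd24a (143) and Wdfy4 (87.8). Of the 22 genes of mature dendritic cells, 21 were higher in mDC2 in all 6 and 0 in mDC1. The highest in mDC2 were Ccl5 (2389 CPM), Ccl17, Ccr7 and Ccl22. Of the 10 cDC2 genes, 3 were higher in mDC2 in all 6 libraries and 1 in mDC1, with Mgl2 (1181 CPM), Tnip3 (1006) and Il1r2 (404) next to Cd209a at the top in mDC2. All 8 plasmacytoid genes were higher in mDC1 in all 6, led there by Bst2 (415 CPM), Ly6d (330), Tcf4 (210) and Siglech (156).

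Of the 8 pan-dendritic genes, Flt3 alone was higher in mDC1 in all 6 libraries. Markers of other cells were present too, and in mDC1 not always at lower levels. The monocyte genes summed above the cDC1 genes in the second brain library at 24 h (2994 against 1156 CPM), brain at 72 h (2632 against 977) and pia at 24 h (2217 against 1053). They summed below them in control pia (1284 against 2419 CPM), control dura (1970 against 3253) and dura at 24 h (1318 against 2644). In mDC1 the summed level was 1284 to 2994 CPM for 12 monocyte genes (2 of them higher in mDC1 in all 6), 229 to 5315 for 8 macrophage genes, 218 to 916 for 6 microglia genes, 7.83 to 223 for 6 neutrophil genes, 0 to 35.4 for 6 basophil genes, 3.25 to 40.8 for 6 T and NK cell genes, 0 to 31.9 for 4 B cell genes and 24.9 to 205 for 4 proliferation genes. In mDC2 these sums were 694 to 1513, 557 to 2074, 278 to 643, 7.97 to 229, 0 to 29.9, 2.66 to 37.4, 3.92 to 22.8 and 51.0 to 215. The 5315 CPM of macrophage genes came from mDC1 of control pia, against 229 to 516 CPM in the other 5 libraries, and its part in the values of control pia below was not tested.

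Which subsets each cluster held was read from cells with at least 1 UMI of a marker group, after every cell was thinned to 1000 UMIs so that depth did not set the share. In mDC1, on average over 6 libraries, 7.16% of cells had Xcr1 or Clec9a (range 1.96% to 17.9%), 16.8% had Cd209a (8.57% to 31.7%), 13.7% had one of the plasmacytoid genes Ccr9, Klk1, Cox6a2, Ly6d and Pacsin1 (2.86% to 26.9%) and 4.29% had Ccr7, Fscn1 or Ccl22. In mDC2 the shares were 0.582%, 62.5% (41.3% to 82.6%), 0.490% and 34.4% (19.1% to 45.7%). In Granulo_2, granulocytes that should lack these genes, thinned to the same depth, they were 0% (0 of 718 cells, which allows up to 0.418%), 1.32%, 0.280% and 0.378%. The mDC2 share for plasmacytoid genes lay near that of the granulocytes and is not read as expression. The mDC2 share for Xcr1 or Clec9a was low, at 0% to 1.96% by library, but its mean was above the limit of the granulocytes. With all UMIs, 14 mDC2 cells had Xcr1 or Clec9a, 7 of them in control dura, and 5 of the 14 had 2 or more of Ccr7, Fscn1 and Ccl22. What these few cells are was not tested. Without thinning the 4 shares were 19.4%, 28.3%, 17.4% and 8.57% in mDC1 and 1.20%, 72.3%, 1.72% and 47.6% in mDC2. mDC1, named by Clec9a, thus had more cells with a UMI of Cd209a than of Xcr1 or Clec9a on average. That order held in both brain libraries, in pia at 24 h and in control dura, while the 2 thinned shares were equal in control pia and in dura at 24 h. With all UMIs, more cells had Xcr1 or Clec9a than Cd209a in control dura (86 against 63), dura at 24 h (47 against 30) and control pia (10 against 8). Thinning evens out depth between cells but not the level of each gene, so shares of different marker groups are not sizes of subsets.

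**Figure D3:**
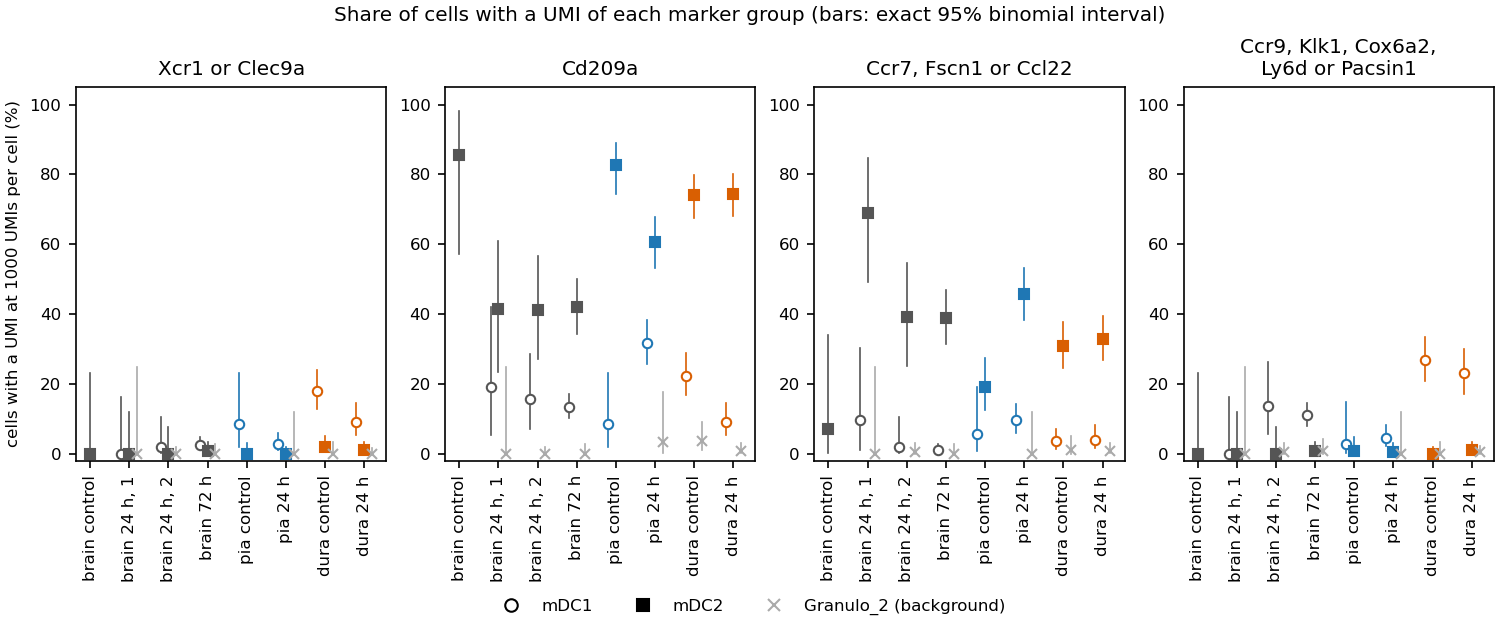
Percent of cells (y axis, exact 95% intervals) with at least 1 UMI of each marker group after thinning to 1000 UMIs per cell, by library (x axis), for mDC1 (open circles), mDC2 (filled squares) and the background cluster Granulo_2 (crosses), colored by tissue. Control dura has the highest share of mDC1 cells with Xcr1 or Clec9a (17.9%) and with plasmacytoid genes (26.9%), and pia at 24 h the highest share with Cd209a (31.7%).

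In dura, 17.9% of control mDC1 cells had Xcr1 or Clec9a (95% Clopper-Pearson interval 12.9% to 23.9%, 201 cells used) and 9.20% at 24 h (5.35% to 14.5%, 174 cells). In pia the shares were 8.57% (1.80% to 23.1%, 35 cells) and 2.71% (1.00% to 5.82%, 221 cells), and in brain 1.96% in the second library at 24 h and 2.62% at 72 h. The dura share was higher than the pia share in both conditions, with intervals that overlapped in both. Plasmacytoid genes were found in 26.9% and 23.0% of dura mDC1 cells, in 2.86% and 4.52% of pia mDC1 cells and in 13.7% and 11.0% of mDC1 cells in brain at 24 h and 72 h.

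Cd209a in mDC1 lay on opposite sides of its control in pia and dura. Its thinned share was 8.57% in control pia and 31.7% (25.6% to 38.2%) at 24 h, and 22.4% (16.8% to 28.8%) in control dura and 9.20% (5.35% to 14.5%) at 24 h. In CPM it went from 141 to 920 in pia, a ratio of 6.53 (95% interval 4.10 to 11.1), and from 534 to 172 in dura, a ratio of 0.322 (0.254 to 0.404). Brain mDC1 stood at 394 and 221 CPM at 24 h and 158 CPM at 72 h. The fit over both tissues gave a log2 difference of 0.27 ± 2.26 for this gene (adjusted p = 0.998), and the difference between tissues was not tested.

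The marker groups were then counted cell by cell. With all UMIs, 191 of 1131 mDC1 cells (16.9%) had Xcr1 or Clec9a, 328 had Cd209a and 202 (17.9%) had a plasmacytoid gene. Of the 191, 19 (9.95%) also had Cd209a and 25 (13.1%) also had a plasmacytoid gene, so these sets overlapped. Of the 328 Cd209a-positive cells, 75 (22.9%) also had a plasmacytoid gene. None of the 4 groups was seen in 478 cells (42.3%), which were 64.9% of mDC1 in control pia, 60.4% in brain at 72 h and 14.1% in control dura, and whose median depth in control pia was 999 UMIs.

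The genes of each set that were not used to pick its cells were compared as means over libraries with 10 or more such cells, and these genes were chosen after their values were seen. mDC1 cells with Xcr1 or Clec9a had Naaa at 909 CPM, Irf8 at 1377, Cadm1 at 178, Gcsam at 151 and Batf3 at 156. mDC1 cells with Cd209a had Batf3 at 23.6 CPM and Naaa at 112, with Cd7 at 722, Clec10a at 398 and Cd209d at 336. Mgl2 and Tnip3, also on the cDC2 list, were at 63.2 and 83.5 CPM over all mDC1 cells, against 1181 and 1006 in mDC2. Their levels in the mDC1 cells with Cd209a alone are not given here, and what those cells are was not tested. mDC1 cells with plasmacytoid genes had Siglech at 970 CPM, Tcf4 at 721, Bst2 at 1372, Irf8 at 1682 and Batf3 at 13.9. Naaa and Cadm1, 2 cDC1 genes, were at 560 and 100 CPM in the mDC1 cells with none of the groups. The first set therefore carried further cDC1 genes and the third further plasmacytoid genes, and the label mDC1 covered both.

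In mDC2, 720 of 991 cells had Cd209a and 265 (26.7%) had 2 or more of Ccr7, Fscn1 and Ccl22, called mature-gene cells here. Cd209a was found in 56 of these 265 cells (21.1%) and in 91.5% of the other mDC2 cells. Beyond the 3 genes that chose them, mature-gene cells had Ccl5 at 9363 CPM, Il12b, a subunit of interleukin-12, at 1020, Batf3 at 209 and Zbtb46 at 101.9. The Cd209a-positive remainder had Ccl5 at 63.6 CPM, Il12b at 6.05, Batf3 at 63.8 and Zbtb46 at 37.6, with the cDC2 genes Mgl2 at 1520, Tnip3 at 927 and Clec10a at 520. In mDC1, 10 cells were mature-gene cells.

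The share of mature-gene cells in mDC2 differed by tissue and time. It was 0 of 15 in control brain (which allows up to 20.0%), 62.1% (18 of 29) and 39.1% (18 of 46) in the 2 brain libraries at 24 h and 33.3% (56 of 168, 26.3% to 41.0%) at 72 h. It was 13.04% (15 of 115, 7.49% to 20.6%) in control pia and 36.3% (69 of 190, 29.5% to 43.6%) at 24 h. In dura it was 18.4% (38 of 206, 13.4% to 24.4%) and 23.0% (51 of 222, 17.6% to 29.1%). The pia intervals did not overlap, while those of dura did. They cover only the counting of cells within single libraries, so no difference between conditions was tested. The cells were picked with all UMIs, without thinning. As a share of all annotated cells of the library, mature-gene cells of mDC2 were 0.393%, 0.519% and 0.926% in brain after MCAO, 0.534% and 1.76% in pia and 1.35% and 1.13% in dura.

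Xcr1 in mDC1 was 136 CPM in control dura and 60.2 CPM at 24 h, a ratio of 0.442 (0.288 to 0.664). In pia it was 78.3 and 10.9 CPM, a ratio of 0.139 (0.0451 to 0.406). In brain it was 0 CPM (0 of 81214 UMIs, which allows up to 36.9 CPM) and 3.25 CPM at 24 h and 8.82 CPM at 72 h, below both meningeal controls. edgeR's quasi-likelihood test with Benjamini-Hochberg adjustment over all genes was fitted on mDC1 sums of 5 libraries, with tissue and condition as terms. The second brain library at 24 h had no control brain in the fit, so the 24 h difference came from pia and dura. The value after ± is the log2 difference divided by the square root of the F statistic, an approximate SE. Xcr1 differed by -1.59 ± 0.40 log2 for 24 h against control (adjusted p = 0.0107, edgeR). DESeq2 did not call it (log2 -1.92, adjusted p = 1.00).

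Clec9a in mDC1, the receptor for dead cells, was 101.8 and 63.8 CPM in control and 24 h dura, 62.6 and 31.2 CPM in pia, 12.3 and 42.2 CPM in brain at 24 h and 15.2 CPM at 72 h. Its log2 difference at 24 h was -0.76 ± 0.38 (adjusted p = 0.556). Batf3 differed by -0.02 ± 0.35 (adjusted p = 0.998) and Flt3 by -0.16 ± 0.29 (adjusted p = 0.961) in the same edgeR fit. Flt3 in mDC1 was 180 and 145 CPM in pia, 240 and 236 CPM in dura, 209 and 87.7 CPM in brain at 24 h and 127 CPM at 72 h.

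Between tissues, Xcr1 in mDC1 was higher in dura than in pia by 1.61 ± 0.43 log2 (adjusted p = 0.0118, edgeR), the 1 member of 10 called, beside 2.42% of all 6941 genes tested. DESeq2 did not call it (adjusted p = 1.00). Of the 12 cDC1 genes 2, Xcr1 among them, were higher in dura in that fit and 12 had a positive difference (median 0.92). Of the 8 plasmacytoid genes 5 were higher and 8 positive (median 2.13), beside a median of 0.01 over all genes. Of the 7 macrophage genes tested, 2 were lower in dura, and their summed level in mDC1 was 5315 CPM in control pia and 229 CPM in control dura, whose part in this was not tested. No member was called between dura and pia in mDC2 by edgeR, where 0.283% of 6360 genes were, and none of the 8 tested had an unadjusted p under 0.05. DESeq2 called none of the 8 either.

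At 24 h against control, 2 of the 10 members were called in mDC1, Xcr1 (lower) and Ccl17 (higher), beside 1.21% of 6941 genes. Ccl17 in mDC1 was 23.5 and 348 CPM in control and 24 h pia, a ratio of 14.8 (5.002 to 72.4), and 21.9 and 172 CPM in dura, a ratio of 7.84 (4.45 to 14.9). Brain mDC1 had 12.3 and 133 CPM at 24 h and 0.80 CPM (1 UMI) at 72 h, and the 5 control brain cells 1669 CPM, so the brain libraries did not follow the meningeal order. The log2 difference in the fit, which came from pia and dura, was 3.24 ± 0.37 (adjusted p = 2.157e-14, edgeR, and 0.0356 with DESeq2). In mDC1 cells with Xcr1 or Clec9a, Ccl17 was 9.65 CPM (3 UMIs) in control dura and 306 CPM at 24 h, a ratio of 31.7 (10.3 to 159), and 49.9 CPM (2 UMIs) and 329 CPM in pia, a ratio of 6.61 (1.63 to 57.8). These cells had 234 CPM in the second brain library at 24 h and 0 of 75353 UMIs at 72 h, which allows up to 39.8 CPM. Of the 12 cDC1 genes, 2 were lower in mDC1 at 24 h, Xcr1 among them (median -0.64, all genes 0.02). Also lower were 1 of 8 plasmacytoid, 1 of 10 monocyte, 1 of 7 macrophage and 2 of 5 microglia genes tested, Siglech being on 2 of these lists. Higher were 1 of 10 cDC2, 1 of 10 monocyte and 1 of 13 mature dendritic genes tested, the last being Ccl17.

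In mDC2, 2 of the 8 members tested were called at 24 h, Fscn1 and Ccl17, both higher, beside 1.38% of 6360 genes. Xcr1 and Clec9a were too sparse in mDC2 to be tested. Of the 10 cDC2 genes, 6 had a positive difference (median 0.24, all genes -0.01), while that of Cd209a was negative. Of the 22 genes of mature dendritic cells, 5 were higher, Fscn1 and Ccl17 among them, 0 lower and 19 positive (median 1.01, all genes -0.01).

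Ccl17 in mDC2 was 495 and 4589 CPM in control and 24 h pia, a ratio of 9.28 (7.99 to 10.8), and 566 and 2215 CPM in dura, a ratio of 3.91 (3.49 to 4.40). In brain it was 908 CPM in the 15 control cells, 8003 and 3020 CPM at 24 h and 124 CPM at 72 h. All 4 libraries at 24 h lay above all 3 controls, and brain at 72 h lay below every other library. The log2 difference at 24 h was 2.54 ± 0.29 (adjusted p = 0.0275, edgeR, and 1.944e-09 with DESeq2).

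Fscn1 in mDC2 was 542 and 1261 CPM in pia, a ratio of 2.33 (1.99 to 2.73), 563 and 1145 CPM in dura, a ratio of 2.03 (1.79 to 2.31), and 49.1 CPM in control brain, 3154 and 408 CPM at 24 h and 431 CPM at 72 h. Its log2 difference was 1.08 ± 0.15 (adjusted p = 0.000935, edgeR, and 0.130 with DESeq2, which did not call it). In pia and dura both controls lay below both libraries at 24 h. Of the 2 brain libraries at 24 h, the first lay above and the second below both meningeal controls. The second, which has the shorter gene list, also had less Fscn1 than the first in microglia clusters. These were Micro_1 (149 against 579 CPM), Micro_2 (178 against 440) and Micro_3 (126 against 311). The part of that library group in the mDC2 value was not tested.

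Ccr7 in mDC2 was 505 and 1921 CPM in pia, 621 and 970 CPM in dura, 0 CPM in control brain (0 of 40731 UMIs, which allows up to 73.7 CPM), 2758 and 1126 CPM at 24 h and 902 CPM at 72 h. Its log2 difference at 24 h was 1.24 ± 0.28 (adjusted p = 0.124, edgeR). Ccl22 was 295 and 1685 CPM in pia, 326 and 588 CPM in dura, 0 CPM in control brain (same limit), 5731 and 2483 CPM at 24 h and 323 CPM at 72 h. Its log2 difference was 1.63 ± 0.53 (adjusted p = 0.442, edgeR, and 0.0157 with DESeq2, which called it). For both genes every library at 24 h lay above every control.

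Cd209a in mDC2 was 5072 and 2423 CPM in control and 24 h pia, 4567 and 3785 CPM in dura, 5696 CPM in control brain, 1922 and 800 CPM at 24 h and 744 CPM at 72 h. Every control lay above every library after MCAO. The log2 difference at 24 h was -0.70 ± 0.22 (adjusted p = 0.226, edgeR), which did not pass. Zbtb46 was 42.5 and 69.4 CPM in pia and 39.2 and 101.6 CPM in dura, with a log2 difference of 1.07 ± 0.31 (adjusted p = 0.0974, edgeR).

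These mDC1 and mDC2 fits left 1 residual degree of freedom, which is how far pia and dura differed in the 24 h change. Their p-values therefore rest on that and on the spread borrowed across genes. Brain entered both by its second library at 24 h alone, without a control, so the 24 h differences came from pia and dura. With libraries of 10 or more cells admitted, 0 genes were called in any of these 4 comparisons by edgeR, with 40 to 211 genes in each at an unadjusted p under 0.05, and Ccl17 in mDC2 had adjusted p = 0.487 with a log2 difference of 2.60. Of 6 neutrophil genes, the 3 that could be tested in mDC2 were all higher at 24 h, their list summing to 7.97 and 49.3 CPM in pia and to 61.1 and 229 CPM in dura, with 1 to 4 of the 6 genes at 0. Their part in the results was not tested.

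Ccl17 was then read separately in the 2 sets of mDC2 cells. In mature-gene cells it was 836 CPM in control pia and 10238 CPM at 24 h, a ratio of 12.3 (8.998 to 17.1), and 979 and 5741 CPM in dura, a ratio of 5.86 (4.81 to 7.21). Among mDC2 cells with Cd209a it was 459 and 1438 CPM in pia, a ratio of 3.13 (2.59 to 3.80), and 484 and 1218 CPM in dura, a ratio of 2.52 (2.16 to 2.94). Both sets were thus above their controls in both tissues, with the larger ratio in mature-gene cells. In brain, mature-gene cells had 11979 and 4433 CPM at 24 h and 88.1 CPM at 72 h, and cells with Cd209a had 963 CPM in control, 2441 and 1735 CPM at 24 h and 163 CPM at 72 h. Without the mature-gene cells, which also left the second brain library under 30 cells and out of the fit, the mDC2 fit on 4 libraries gave a log2 difference of 1.51 ± 0.16 for Ccl17 (adjusted p = 0.0889, edgeR). Without that library alone it was 2.52 (adjusted p = 0.0292, edgeR). That library had no control brain beside it in the fit, so leaving it out is no check of the 24 h difference.

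**Figure D4:**
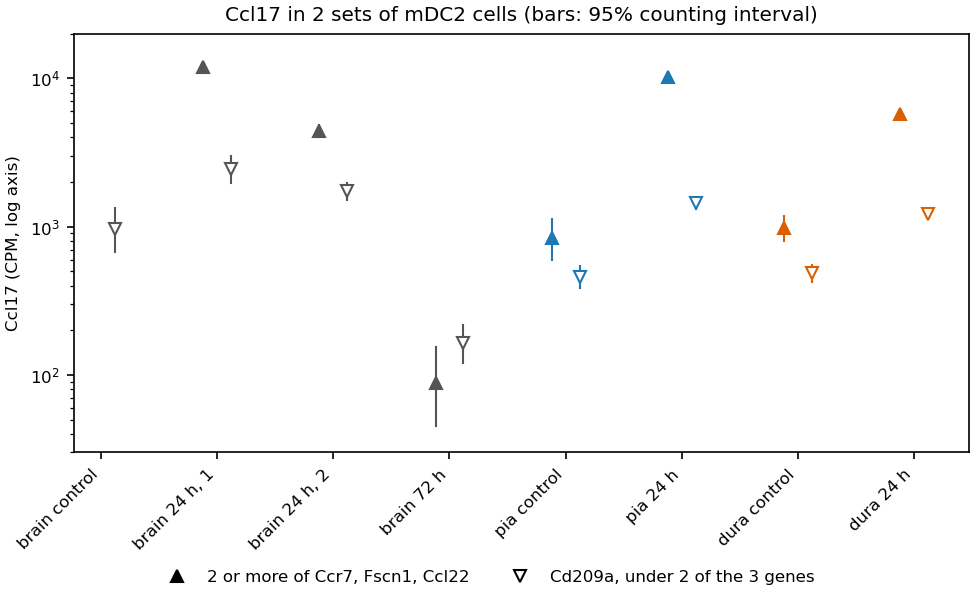
Ccl17 in CPM (y axis, log) in mDC2 cells with 2 or more of Ccr7, Fscn1 and Ccl22 and in the other mDC2 cells with Cd209a, by library (x axis), with exact 95% Poisson intervals. Levels at 24 h exceed the controls in both sets, and both sets are lowest in brain at 72 h (88.1 and 163 CPM).

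Mature-gene cells of brain at 72 h, which were 33.3% of mDC2, had less Ccl17 than those at 24 h. Against the second brain library at 24 h, which has the same gene list, Ccl17 stood at 88.1 against 4433 CPM, a ratio of 0.0199 (0.0102 to 0.0351), and Ccl22 at 933 against 5780 CPM, a ratio of 0.161 (0.132 to 0.196). Ccr7 was at 2879 against 2811 CPM. Ccl22 and Ccr7 are among the genes that chose the cells, so their values are a description only. Cd209a in them was 29.4 CPM (4 UMIs) against 344 CPM, a ratio of 0.0854 (0.0221 to 0.239).

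In brain at 72 h the cDC1 receptors lay mostly outside mDC1. Of 152 UMIs of Xcr1 and Clec9a in that library, Macro_2 held 88 (57.9%, 49.6% to 65.9%) and mDC1 30 (19.7%, 13.7% to 27.0%). In control dura mDC1 held 152 of 202 (75.2%) and Macro_2 8. Macro_2 had 38 such cells among 570 at 72 h, and mDC1 had 19 among 384. Thinned to 1000 UMIs, the share was 3.96% (2.50% to 5.94%) of Macro_2 cells at 72 h, 2.22% in the second brain library at 24 h and 0 to 0.344% in the other 6 libraries. The 2 libraries with the higher shares are those with the gene list of 31053 entries that stood apart, and control dura has the other list. Time or tissue cannot be told apart from that library group here.

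**Figure D5:**
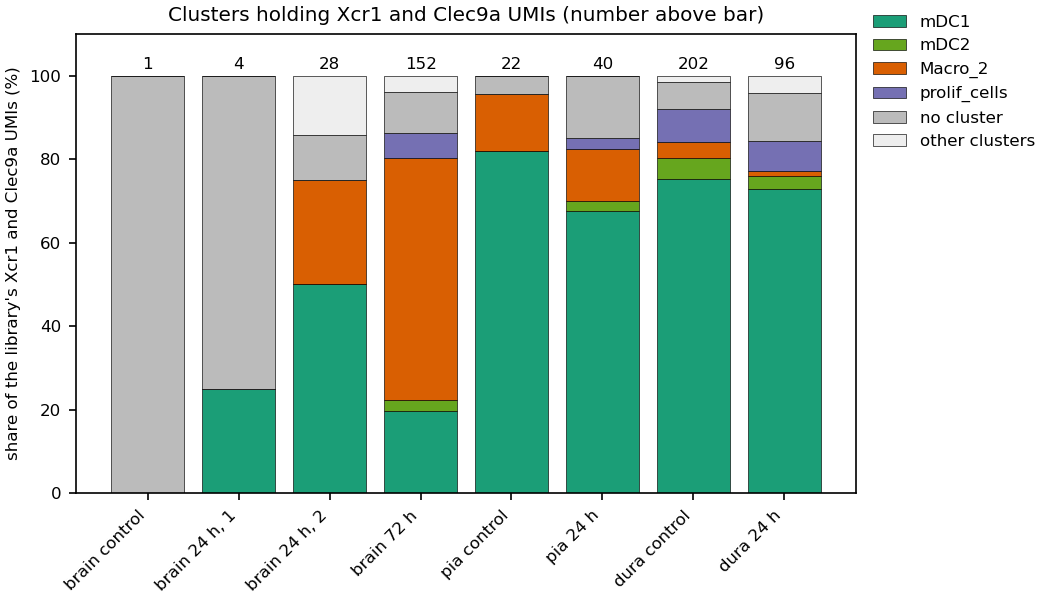
Percent of Xcr1 and Clec9a UMIs (y axis) in mDC1, mDC2, Macro_2, the proliferating cluster (prolif_cells), barcodes without a cluster and other clusters, for each library (x axis), with the number of UMIs above each bar. mDC1 holds most of them in pia and dura, and Macro_2 holds 57.9% in brain at 72 h.

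The 38 Macro_2 cells were set beside the other 532 Macro_2 cells of the same library, with median depths of 4148 and 3006 UMIs. All 10 of the cDC1 genes not used to pick them had a 95% Poisson interval above that of the other cells, beside 4.08% of 10777 genes. Irf8 was at 2101 against 233 CPM, Wdfy4 at 533 against 68.1, Naaa at 527 against 64.6, Batf3 at 270 against 24.7 and Itgae at 263 against 16.4. The 8 pan-dendritic genes went both ways, with 3 above, among them Flt3 (220 against 39.3 CPM), and 4 below, among them Itgax (62.7 against 251 CPM) and Cd74 (15034 against 18340 CPM). Of the 8 macrophage genes 0 were above and 6 below, beside 5.0% of all genes, with C1qb at 94.1 against 914 CPM and Mrc1 at 0 against 42.3 CPM. Cd209a had no UMI in them (0 to 23.1 CPM) and 45.8 CPM in the others. The 19 mDC1 cells with Xcr1 or Clec9a in this library had Irf8 at 1792 CPM, Batf3 at 159 and Wdfy4 at 252. Macro_2 thus held cells of this library with the cDC1 genes, a set that the cluster name does not show. The genes named here were chosen after their values were seen.

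Over all annotated cells at 24 h against control, 0 members were called by edgeR, as were 0% of 11945 genes, with 409 genes at an unadjusted p under 0.05. DESeq2 called 64 genes, among them Ccl17 (log2 2.79, adjusted p = 7.968e-05). In edgeR the log2 difference of Ccl17 was 2.78 ± 0.56 (adjusted p = 0.988), and that of Ccl22 2.81 ± 1.42 and of Ccr7 2.12 ± 1.09, both with the same adjusted p. In such sums more cells of a type and more RNA per cell cannot be told apart.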

How the data were processed

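Leukocytes were profiled with 10x Genomics 3′ libraries. The UMI counts per gene and cell were made by the authors with Cell Ranger 6.0 on mm10 and deposited as matrices with a table of cluster names. Per the methods, the authors removed doublets (scDblFinder) and cells with few genes, many genes or high mitochondrial shares before clustering, so cells with much RNA can be missing from the clusters, and 4397 of 36854 barcodes carry no cluster. Sums per library and cluster of 30 cells or more were analysed with scipy 1.17.1, numpy 2.4.6 and pandas 2.3.3 under Python 3.11.15. Differences were tested with edgeR 4.0.16 in R 4.3.3 (quasi-likelihood, filterByExpr, TMM, Benjamini-Hochberg) on controls and 24 h libraries, with tissue and condition as terms. A gene was called at adjusted p under 0.05 and a fold of 2 or more. DESeq2 1.42.0 was an alternative. Single libraries were compared with exact conditional intervals for the ratio, exact Poisson intervals for CPM and Clopper-Pearson intervals for shares. Within-library log2 ratios used a pseudocount of 0.5 counts.

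DESeq2 and the dura against pia comparisons were not checked on simulated counts. For 24 h against control, each main edgeR fit was checked on simulated counts in which 200 genes differed 4-fold. Of these, 99.5% were recovered in all cells (11761 genes), 86.5% in mDC1 (6536) and 96.5% in mDC2 (5866). The changed genes were drawn from well-counted genes, and every gene was given the same fixed spread between libraries. These percentages therefore do not give the power on the real counts, where edgeR called 0 of 11945 genes in all cells. The genes, lists and tests were chosen with earlier results of these data known. By rule, the text names the 10 members, members called in a fit, for the dendritic lists the 4 genes highest in each cluster, and the 5 genes most alike. Other genes are named as well. Those named where sets of cells were compared were chosen after their values were seen. The marker group of plasmacytoid genes, the rule of 2 or more maturation genes, the split of mDC2 and the split of Macro_2 were chosen after seeing the data. Replicates were samples by label. p-values measure only the spread between these pooled libraries.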

Additional observations from a re-analysis of the deposited data

Results flagged for a closer look

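Cd209a in mDC1 lay on opposite sides of its control in the 2 meningeal layers, with a ratio of 24 h to control of 6.53 in pia and 0.322 in dura. The difference between the tissues was not tested, since each tissue and time had 1 library.

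Barcodes without a cluster enter the report above only in the totals behind shares of a gene's UMIs. They held several of the genes above their level in the matched control library and others below it. At 24 h in pia Ccl17 was at 339.0 CPM in them (control 24.9), Ccl22 at 72.3 (1.31) and Ccr7 at 60.4 (13.1). At 24 h in dura Ccl17 was at 93.9 CPM (6.25) and Fscn1 at 38.4 (15.2). In the first brain library at 24 h Cd209a was at 67.4 CPM (15.2) and Ccl17 at 39.0 (0 of 923495 UMIs, which allows up to 3.25 CPM). That Cd209a value came from 6 of 378 barcodes, against 5 of 295 in control brain, so it does not show more positive barcodes. At 72 h in brain Flt3 was at 11.5 CPM (2.17), Cd209a at 32.1 (15.2) and Ccr7 at 30.4 (0, with the same limit). Cd209a was lower than in the control at 24 h in pia (201.9 against 317.5 CPM) and in dura (166.5 against 417.8 CPM). It was found in 62 of 400 barcodes in pia at 24 h and 39 of 266 in control pia. In dura these were 64 of 538 and 46 of 293. Fscn1 was lower than in control brain (649.7 CPM) in both brain libraries at 24 h (341.0 and 37.9 CPM) and at 72 h (23.8 CPM). The second library at 24 h and that at 72 h have the shorter gene list, so time cannot be told apart from library group in them. Of the 4397 such barcodes, 43 had 2 or more of Ccr7, Fscn1 and Ccl22.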

How the results depend on the processing

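Counts of called genes depended on the processing, and the cause was not tested. For 24 h against control in all cells the count went from 0 to 64 with DESeq2 and 184 without the filter, and it was 0 to 52 when 1 library was left out (52 without the second brain library at 24 h). In mDC1 it went from 84 to 1 with DESeq2, 5 with library size alone, 44 without the filter and 0 with libraries of 10 cells or more. For dura against pia in mDC1 it went from 168 to 3, 31 and 0 with DESeq2, library size and 10 cells. In mDC2 at 24 h it went from 88 to 7 with DESeq2, 141 without the filter, 0 with 10 cells and 0 without mature-gene cells, and for dura against pia from 18 to 2, 43, 0 and 3. The fit without mature-gene cells also lost the second brain library at 24 h, so the 2 changes cannot be told apart in it. Leaving out the second brain library at 24 h gave 79, 159, 64 and 8 in these 4 comparisons. It had no control brain beside it in these fits, so this is no check of the 24 h differences. Leaving out any pia or dura library was not run, since no residual degrees of freedom remain. No paired analysis was made, since the replicate numbers do not link libraries of different tissues. The methods dissect brain, pia and dura from mice, so libraries of 1 condition may share mice.

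Mean shares moved without thinning to 19.4% (Xcr1 or Clec9a), 28.3% (Cd209a) and 8.57% (maturation genes) of mDC1 and 47.6% (maturation genes) of mDC2, and to 0.723% of mDC1 where 2 of the 3 maturation genes were needed. Leaving out 1 library gave 5.01% to 8.20%, 13.8% to 18.5% and 3.25% to 4.94% in mDC1 and 0.306% to 0.698% (Xcr1 or Clec9a), 58.5% to 66.8% (Cd209a) and 32.2% to 37.5% (maturation genes) in mDC2.

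Of 296 log2 differences of members under alternatives, 265 kept direction and call, 12 lost the call, 8 gained it and 11 changed sign, none of those called. Over all cells, leaving out 1 library gave -0.25 to 1.06 for Flt3, -1.30 to 0.67 for Xcr1, -0.72 to 1.98 for Clec9a and -1.004 to 0.20 for Fscn1. The changes of sign there were Flt3 -0.25, Clec9a -0.58 and Fscn1 0.20 without control brain, Clec9a -0.72 without the second brain library at 24 h, and Xcr1 0.67 and 0.56 without control dura and dura at 24 h. They were also Batf3 0.025 in mDC1 without the filter and -0.35 in mDC2 without mature-gene cells, and Fscn1 between dura and pia, 0.27 in mDC1 with DESeq2 and 0.019 and 0.033 in mDC2 without the filter and with 10 cells. Pia mDC1 rested on 57 control cells, 35 of them with 1000 UMIs or more, and control brain on 5 and 15 cells, which limits what their depth can show.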

Other observations

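Across 112 sums of a library and cluster with 30 or more cells, the genes whose log2(CPM + 10) ran most like the members were named as a description, since the sums share libraries and depth and the genes are not independent. For Xcr1 plus Clec9a these were Sept3 (Pearson r 0.89), Snx22 (0.88), Ffar4 (0.82), Cd300c (0.79) and Gm3336 (0.77). For Cd209a they were Mgl2 (0.81), Clec4b1 (0.80), Clec10a (0.79), Tnip3 (0.78) and H2-Ab1 (0.77). For Ccr7 plus Fscn1 plus Ccl22 they were Snn (0.65), Tspan3 (0.59), Tuba1a (0.59), Il4i1 (0.58) and Fcrl1 (0.57), out of 10532 genes compared. This sum also holds Ccr7 of B cells (461 CPM) and Fscn1 of microglia (377 CPM in Micro_1). These genes are therefore not read as genes of dendritic maturation. In mDC2, Snn was at 14.9 CPM and Fcrl1 at 6.89 CPM, while Tspan3 was at 317, Tuba1a at 193 and Il4i1 at 193.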
